A study of Mus musculus with 6 samples.

Results

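Of 9236 regions of open chromatin shared by 3 libraries of mouse embryonic fibroblasts (MEFs), 3966 had no peak in the library labelled Hyp-Imm, from MEFs immortalized in hypoxia. The regions came from merging the ATAC-seq peaks of 4 libraries wherever they overlapped or touched, which gave 170532 regions in all. Members were chosen by the presence or absence of peaks: at least 1 peak (1 bp of overlap) in Norm-Pro, Norm-Sen and Hyp-Pro and none in Hyp-Imm. The missing share, 42.9% of the shared regions, is the call itself, so the background of the call is the same 42.9%. It describes the peak lists only.

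The MEFs came from C57BL/6J embryos at E13.5. Norm-Pro were proliferating MEFs at passage 1 in 20% oxygen, and Hyp-Pro were proliferating MEFs at passage 1 in 3% oxygen. Norm-Sen were senescent MEFs in 20% oxygen and Hyp-Imm were MEFs that had become immortal in 3% oxygen. No agent, transgene or deletion distinguished the groups. The study followed how low oxygen lets primary cells escape senescence and what the transcription factor Tfcp2l1 does in that escape, and 2 ChIP-seq libraries against Tfcp2l1, from senescent MEFs in 20% oxygen (ChIP-Norm) and immortalized MEFs in 3% oxygen (ChIP-Hyp), accompanied the ATAC-seq. Each condition was 1 library, so no replicate error exists and no condition was tested against another.

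In ATAC-seq the transposase Tn5 cuts DNA that nucleosomes leave free, and peaks of cuts mark promoters, enhancers and insulators. Promoters of widely used genes usually lie in CpG islands and stay accessible in most cell types, whereas distal elements vary more between cell states. In fibroblasts many distal elements carry sites for AP-1, the dimers of Jun and Fos proteins that respond to growth factors and stress and that take part in the chromatin changes of senescence.

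Some facts of the libraries touch every result. Each of the 4 ATAC-seq files carries a name that contradicts its sample label. The file of the library labelled Norm-Pro is named for immortalized MEFs in hypoxia, that of Norm-Sen for hypoxia at passage 1, that of Hyp-Pro for normoxia at passage 1, and that of Hyp-Imm for senescent MEFs in normoxia. Conditions here follow the labels, so by the file name the same 3966 regions were missing in senescent MEFs in normoxia. Which of the 2 is right cannot be told apart from the peak lists. Hyp-Imm was the shallowest library, with 37770 peaks against 47523 to 69122 in the others, and the background level derived from its fold values was 25.2% of that in Norm-Sen. The X chromosome held 1.08% of the peaks of Norm-Pro and 1.44% of those of Hyp-Imm, against 4.44% in Norm-Sen and 4.76% in Hyp-Pro. By file name the low shares belong to the immortalized and senescent MEFs and the high shares to passage 1. Peaks at the start sites of fibroblast genes were present in all 4 libraries, at Vim, Fn1, Col1a2 and Twist1 in Hyp-Imm (4 of 15 fibroblast genes) and at 7 or 8 of 15 in the others, while Lum, Col3a1, Prrx1 and Fap had none in any. In Hyp-Imm 4 of 11 endothelial genes (Kdr, Erg, Egfl7 and Eng), 3 of 12 epithelial genes (Cdh1, Krt19 and Grhl2) and 3 of 12 blood genes (Spi1, Cd68 and Adgre1) had a peak as well, against 1 of 12 neural genes (Map2) and 0 of 10 muscle genes. Over all protein-coding genes, 34.2% had a start-site peak in Hyp-Imm and 48.2% to 53.4% in the others. Start-site peaks in Hyp-Imm therefore do not set fibroblasts apart from those other cell types.

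The sequences of 8 members are shown because they include both kinds of element that the rest of the description turns on: GC-rich promoters with GC boxes and CCAAT boxes, and distal elements with AP-1 or CRE sites. They are the 200 bp around the summit of the peak with the best rank, read from the plus strand of GRCm38. Capitals mark matches to the searched motifs on either strand: the GC box of Sp and Klf factors (GGGCGGG), the CCAAT box of NFY (CCAATNAG), AP-1 (TGANTCA), CRE (TGACGTCA), RUNX (TGTGGTT) and the core of the hypoxia response element (ACGTGC).
Gm527 promoter, chr12:64917691-64917890: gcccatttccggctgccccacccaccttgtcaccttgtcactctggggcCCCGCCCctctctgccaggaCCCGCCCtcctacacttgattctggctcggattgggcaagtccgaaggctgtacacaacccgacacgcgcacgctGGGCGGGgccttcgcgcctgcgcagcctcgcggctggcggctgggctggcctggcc
Ankrd54 promoter, chr15:79062869-79063068: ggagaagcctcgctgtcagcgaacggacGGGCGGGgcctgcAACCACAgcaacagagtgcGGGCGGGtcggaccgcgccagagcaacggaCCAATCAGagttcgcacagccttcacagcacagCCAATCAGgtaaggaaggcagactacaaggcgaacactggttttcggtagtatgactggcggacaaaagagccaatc
Fez2 promoter, chr17:78417634-78417833: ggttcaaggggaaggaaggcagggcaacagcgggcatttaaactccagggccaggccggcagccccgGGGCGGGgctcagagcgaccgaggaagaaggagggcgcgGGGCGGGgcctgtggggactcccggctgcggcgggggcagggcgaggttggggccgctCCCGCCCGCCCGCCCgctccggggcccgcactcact
Slc4a1ap, distal, chr5:31576786-31576985: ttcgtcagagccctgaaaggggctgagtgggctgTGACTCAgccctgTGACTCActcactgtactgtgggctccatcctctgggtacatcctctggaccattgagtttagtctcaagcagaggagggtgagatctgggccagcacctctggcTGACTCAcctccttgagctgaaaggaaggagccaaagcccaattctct
Arrdc3, distal, chr13:80962969-80963168: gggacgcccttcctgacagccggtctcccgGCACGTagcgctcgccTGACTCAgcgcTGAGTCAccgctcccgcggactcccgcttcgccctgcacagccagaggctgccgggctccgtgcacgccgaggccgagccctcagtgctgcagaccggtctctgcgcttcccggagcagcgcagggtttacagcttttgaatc
Scp2, distal in an intron, chr4:108058200-108058399: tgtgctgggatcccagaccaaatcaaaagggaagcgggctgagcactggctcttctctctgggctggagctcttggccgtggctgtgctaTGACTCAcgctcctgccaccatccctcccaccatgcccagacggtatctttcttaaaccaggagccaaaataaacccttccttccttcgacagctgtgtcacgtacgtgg
Myo1g, distal, chr11:6528761-6528960: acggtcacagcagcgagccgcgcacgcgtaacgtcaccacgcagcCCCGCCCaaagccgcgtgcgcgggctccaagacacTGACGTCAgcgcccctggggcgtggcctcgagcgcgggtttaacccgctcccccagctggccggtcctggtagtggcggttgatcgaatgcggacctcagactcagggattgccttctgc
Tex44, distal, chr1:86434466-86434665: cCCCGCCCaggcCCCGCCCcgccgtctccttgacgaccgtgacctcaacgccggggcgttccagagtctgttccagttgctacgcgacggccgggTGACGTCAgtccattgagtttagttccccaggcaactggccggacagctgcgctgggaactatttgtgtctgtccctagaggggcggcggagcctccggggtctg
The distal windows near Slc4a1ap, Myo1g and Tex44 are intergenic with respect to protein-coding genes and touch no annotated exon, and the Arrdc3 window lies in an exon of a transcript that is not protein-coding. The windows of Gm527 and Fez2 hold no untranslated base of a protein-coding transcript, and that of Ankrd54 holds 17. A match is a stretch of letters and was not shown to be bound.

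The strength of a region was read from its rank within each library, by the −log10 q that the peak caller gave, as the top percent of that library's peaks (0 is the strongest). The weakest of the 3 ranks then says how strong a region was in all 3. Among the 1084 shared regions in the top 5% of all 3 libraries, 63 had no Hyp-Imm peak (5.81%, interval 4.49-7.37). The share rose to 18.5% (16.3-20.8) between the top 5% and 10%, to 32.5% (30.2-34.9) between 10% and 20%, and to 72.0% (69.0-74.8) in the weakest bin, 80% to 100%. Intervals here and below are 95% exact Clopper-Pearson intervals and cover counting error only. The weaker a region was in the 3 libraries, the more often it was missing in Hyp-Imm, but 2113 of the members (53.3%) lay in the top 50% of all 3.

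The same construction for each other library gave smaller sets. Regions missing only in Norm-Pro were 433 of 5703 (7.59%), only in Norm-Sen 572 of 5842 (9.79%) and only in Hyp-Pro 826 of 6096 (interval 12.7-14.4%). In the top 5% bin the missing shares were 0.149% for Norm-Pro, 0.285% for Norm-Sen and 1.04% for Hyp-Pro. The order of the 4 libraries is the order of their peak numbers. It is not that of the derived background throughout, since Norm-Pro had 70.1% of the background of Norm-Sen but more peaks (69122 against 61408). How much of the order depth accounts for was not tested. Of the Hyp-Imm members 20.1% lay in the top 20% of all 3 libraries, against 4.85%, 7.17% and 8.96% of the sets missing in Norm-Pro, Norm-Sen and Hyp-Pro.

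**Figure D1:**
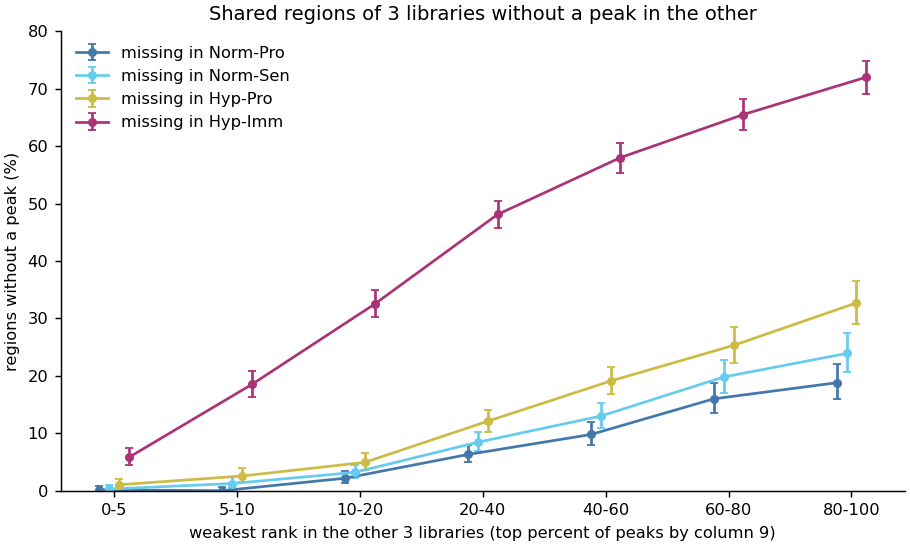
Share of regions with a peak in 3 libraries and none in the remaining library (y axis, percent), by the weakest rank in the 3 (x axis, top percent bins), with 95% exact intervals as bars. The share missing in Hyp-Imm runs from 5.81% to 72.0% and lies above the other 3 curves in every bin.

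Within each library the members ranked lower than regions of all 4. Their median top percent was 15.6, 19.3 and 24.7 in Norm-Pro, Norm-Sen and Hyp-Pro, against 5.58, 6.47 and 8.51 for the 5270 regions of all 4. Median fold enrichment of the members over local background was 5.03, 4.65 and 5.19 in Norm-Pro, Norm-Sen and Hyp-Pro. The median member was 282 bp wide and the median region of all 4 was 400 bp. Norm-Pro held the strongest of the 3 ranks for 42.4% of the members, Norm-Sen for 33.6% and Hyp-Pro for 23.9%, and the corresponding shares of the regions of all 4 were 42.4%, 33.2% and 24.4%. No one of the 3 libraries supplied the strongest peak more often in the members than in the regions of all 4 by more than 1 percentage point.

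**Figure D2:**
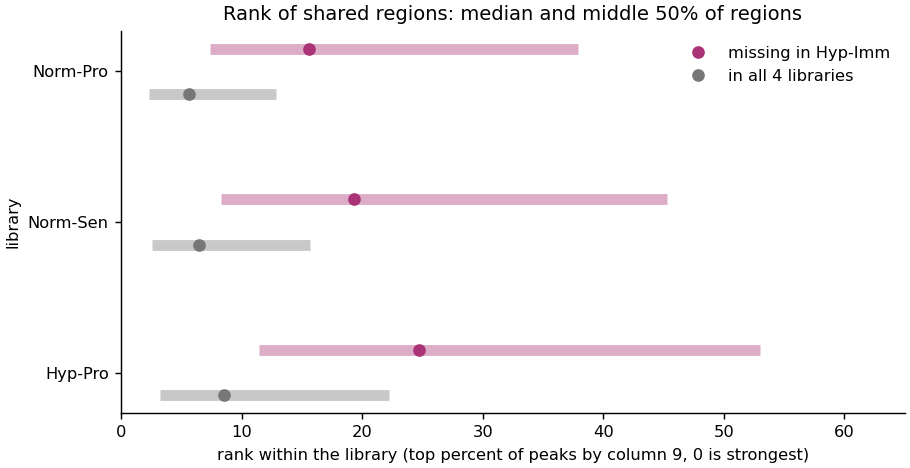
Median rank (points) and middle 50% of regions (bars) within each of the 3 libraries, for regions missing in Hyp-Imm and regions of all 4 libraries. On the x axis, in top percent, the members' medians of 15.6, 19.3 and 24.7 lie to the right of 5.58, 6.47 and 8.51.

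Read numbers could be derived for under 10% of the members in each library. For the members whose fold values lie on whole steps of reads, the median number of reads at the summit was 11.0 (n = 366), 13.0 (n = 335) and 10.0 (n = 326) in Norm-Pro, Norm-Sen and Hyp-Pro. Multiplied by the ratio of the backgrounds these became 3.95, 3.28 and 4.66 reads. The lowest number of reads that at least 1% of such Hyp-Imm peaks had was 5, and 21.9%, 5.07% and 34.4% of these members reached it. Among regions of all 4 on whole steps, 47.1%, 26.0% and 65.3% reached it by the same scaling, and the observed median in Hyp-Imm was 7 reads. All of those regions were called in Hyp-Imm, so the scaling does not tell called from missing regions, and the part of depth in the missing peaks was not tested. A missing peak does not show closed chromatin.

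The boundary of the set is not sharp. Of 3959 members on sequences with a Hyp-Imm peak, 188 (4.75%) had one within 100 bp and 783 (19.8%, 18.5-21.1) within 1000 bp. In the sets missing only in Norm-Pro, Norm-Sen or Hyp-Pro, 35.8%, 36.2% and 31.8% had a peak of the missing library within 1000 bp. Just inside, members at the promoters of Gmeb1, Fam104a and Cracr2a ended 1, 2 and 2 bp from a Hyp-Imm peak. Just outside, the promoters of Gcdh and E2f8 and an intron of Maml3 were held in Hyp-Imm by peaks of −log10 q 1.36, 1.68 and 1.74. E2f8, an atypical E2F that represses cell-cycle genes, ranked in the top 4.92% of all 3 other libraries all the same.

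The 12 strongest promoter members belonged to genes of varied function. At Gm527, a predicted gene, the region chr12:64917659-64918034 ranked in the top 0.340% of Norm-Pro, 0.274% of Norm-Sen and 0.904% of Hyp-Pro, with −log10 q of 19.7, 22.3 and 16.8. Its nearest Hyp-Imm peak lay 26618 bp away. At Wbp11, which encodes a spliceosome-associated protein, the ranks were 1.69%, 0.657% and 1.56%, and the start site of BC049715 shares that region.
At Ankrd54 the ranks were 2.19%, 1.10% and 1.58% in Norm-Pro, Norm-Sen and Hyp-Pro. Fyn, a Src family kinase, ranked 2.06%, 1.77% and 2.79%, with a Hyp-Imm peak 101 bp away, and AW822073 had one at 180 bp. Hyp-Imm thus had a peak beside the members at Fyn and AW822073, whereas the members at Gm527, Wbp11, Ankrd54, Fez2, Copz1, Dennd4a and Hinfp lay 8441 bp (Wbp11) to 37906 bp (Fez2) from the nearest one.
Among that group, Copz1 encodes a coatomer subunit of Golgi vesicles and ranked 1.46%, 2.82% and 0.844% in Norm-Pro, Norm-Sen and Hyp-Pro. Hinfp, a zinc finger activator of histone H4 genes, ranked 0.815%, 1.15% and 3.06%. Sec24a, a coat protein of vesicles that leave the endoplasmic reticulum, ranked 2.52%, 3.07% and 2.78%, and Top1, the DNA topoisomerase, 1.02%, 3.14% and 1.61%. Their nearest Hyp-Imm peaks lay 6944 and 2628 bp away.

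**Figure D3:**
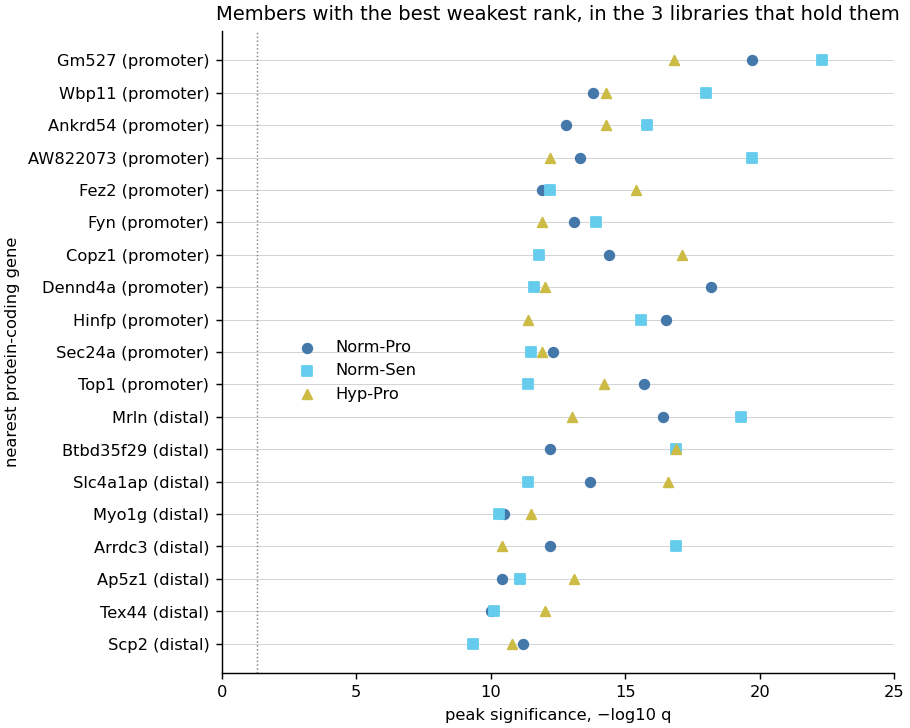
The −log10 q (x axis) in Norm-Pro, Norm-Sen and Hyp-Pro of 11 of the 12 promoter members and the 8 distal members (within 100 kb of a start site) with the best weakest rank, each row being 1 member named by its nearest protein-coding gene. The dotted line marks an FDR of 0.05 and all values lie far to its right, from 9.32 at Scp2 in Norm-Sen to 22.3 at Gm527 in Norm-Sen.

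Among the 8 strongest distal members within 100 kb of a start site, 3 had an AP-1 site. The one 32817 bp from Slc4a1ap (chr5:31576678-31577010) held 3 AP-1 matches in the window printed above and ranked 1.73%, 3.12% and 0.924% in Norm-Pro, Norm-Sen and Hyp-Pro. That 76776 bp from Arrdc3, an arrestin-related adaptor of membrane receptors, held a pair of AP-1 matches and ranked 2.57%, 0.845% and 4.05%. The third lay in an intron, 12903 bp from the start site of Scp2, the sterol carrier protein, and ranked 3.37%, 5.14% and 3.74%. The nearest Hyp-Imm peaks lay 53184, 50631 and 18015 bp away.
Members near Myo1g, a myosin of blood cells, and Tex44 held a CRE and a GC box and ranked 3.88% and 4.42% in Norm-Pro, 3.99% and 4.23% in Norm-Sen and 3.05% and 2.72% in Hyp-Pro. The strongest distal member by rank, 17617 bp from Mrln, had a window of which 99.0% was repeat sequence, and that near Btbd35f29 on the X chromosome lies among copies of a gene family. Reads of such sites can come from other copies, so their values are uncertain.

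Promoters, taken as regions within 1 kb of the start site of a protein-coding transcript, made up 2686 of the members (67.7%, 66.2-69.2). Introns held 430 members (10.8%), exons 92 (2.32%) and intergenic sequence 736 (18.6%), and 22 lay on sequences without an annotated protein-coding gene. Regions of all 4 were promoters in 84.5% (83.5-85.5). Within bins of the weakest rank the promoter shares were 78.8% (75.8-81.6) of members against 87.2% (86.0-88.4) of regions of all 4 in the top 20%, and 58.5% against 75.1% in the weakest bin. Read the other way, 37.6% of the promoter regions and 61.0% of the distal regions of the 3 libraries were missing in Hyp-Imm. In the top 5% bin these shares were 5.95% (4.50-7.69) and 5.11% (2.36-9.49), and between the top 10% and 20% they were 29.2% (26.8-31.7) and 50.2% (43.8-56.5). Distal regions were also the more often missing ones in Norm-Pro (19.7% against 4.95% of promoters), Norm-Sen (20.3% against 7.56%) and Hyp-Pro (28.3% against 10.1%).

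The promoters that were missing resembled those that were kept in base composition. Median GC content of the 200 bp window was 68.0% in promoter members and 69.0% in promoters of all 4, and 86.2% and 88.8% had a CpG ratio of at least 0.6 with at least 50% GC. Distal members differed more, with a CpG-rich window in 19.3% (17.1-21.6) against 35.5% (32.2-39.0) of distal regions of all 4. Windows mostly made of repeats were 8.29% of the distal members and 13.7% of the distal regions of all 4.

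AP-1 sites (TGANTCA) were more frequent in the distal members than in the distal regions that Hyp-Imm kept. Of 1255 distal members on the autosomes and the X chromosome, 340 held one (27.1%, 24.6-29.6), against 122 of 780 distal regions of all 4 (15.6%, 13.2-18.4) and 7.68% of all 170295 region windows. At promoters the shares were 2.57% in members and 2.20% in regions of all 4. The difference at distal sites was widest among strong regions, where 28.3% of the members and 9.51% of the regions of all 4 in the top 20% held a site. Stated as missing shares, 47 of 82 strong distal regions with an AP-1 site had no Hyp-Imm peak (57.3%, 45.9-68.2), against 119 of 452 without one (26.3%, 22.3-30.6). Members and kept regions were not matched on rank within this bin. The missing share of distal regions rose inside it, from 5.11% in the top 5% to 25.8% between 5% and 10% and 50.2% between 10% and 20%. AP-1 was not split by these finer bins, so its part and that of rank were not separated. In the bins from 20% to 50% and from 50% to 100% the pairs were 72.4% against 63.8% and 80.3% against 75.1%, with intervals that overlapped. Distal regions missing only in Norm-Pro, Norm-Sen or Hyp-Pro held an AP-1 site in 20.0% (14.7-26.2), 14.0% (9.59-19.5) and 15.4% (11.6-19.9).

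**Figure D4:**
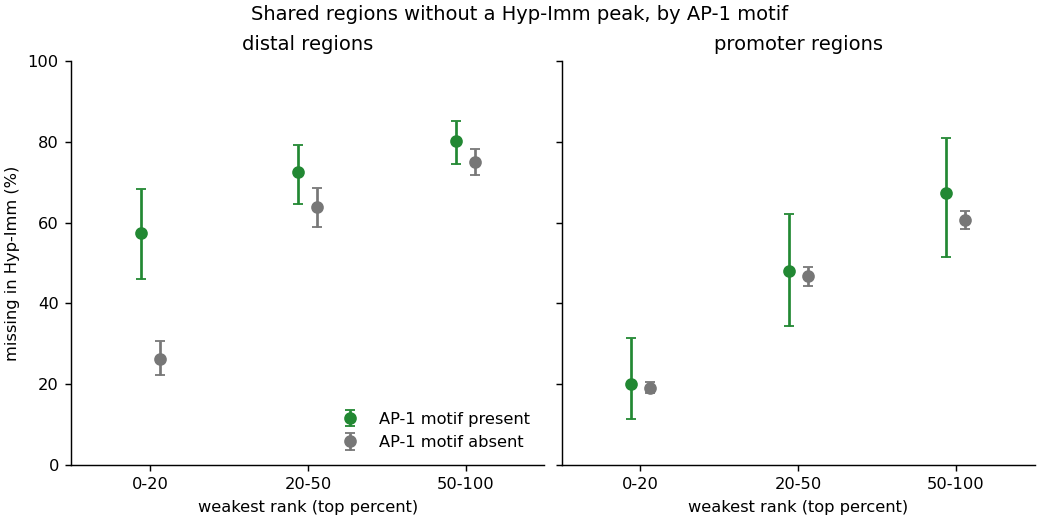
Share of shared regions without a Hyp-Imm peak (y axis, percent, with 95% exact intervals) by weakest rank (x axis), for distal regions on the left and promoters on the right, with and without an AP-1 motif in the 200 bp window. In the top 20% the distal pair stands at 57.3% and 26.3% and the promoter pair at 20.0% and 19.1%.

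GC boxes went the other way. The Sp and Klf motif was found in 46.9% (45.0-48.8) of promoter members and 58.1% (56.6-59.5) of promoters of all 4, and in 14.7% and 23.6% of the distal regions, with 7.36% of all windows. In the top 20% the promoter shares were 55.0% and 61.9%. The NFY motif was found in 7.33% (6.38-8.39) of promoter members and 11.7% (10.8-12.7) of promoters of all 4, with 2.55% of all windows. By rank the NFY shares of members and regions of all 4 were 11.3% and 14.2% in the top 20%, 6.01% and 9.59% from 20% to 50%, and 6.22% and 5.77% from 50% to 100%, where the order turned. The sets missing only in Norm-Pro, Norm-Sen or Hyp-Pro also had low shares at promoters, of 43.1%, 47.0% and 37.0% for Sp and Klf and 4.74%, 4.12% and 5.77% for NFY. For 16 of the 18 motifs at promoters and 16 of 18 at distal sites the intervals of members and regions of all 4 overlapped. Among these, the hypoxia response core (ACGTGC) was found in 6.25% of promoter members and 7.04% of promoters of all 4, with 3.01% of all windows. The E-box of Myc and USF (CACGTG), which overlaps it where a C follows, stood at 6.96% and 7.69%, with 3.56% of all windows. Several factors of CpG-island promoters had shares that were close in both sets. CRE was found in 3.02% and 2.90% of the promoters (0.405% of all windows) and ETS (CCGGAAGT) in 6.55% and 5.53% (0.721%). NRF1 (GCGCATGCG) was found in 2.61% and 2.05% (0.295%), YY1 (AAGATGGCG) in 2.38% and 2.70% (0.477%) and ZBTB33 (CTCGCGAG) in 2.05% and 1.98% (0.156%).
At distal sites the core of CTCF (CNAGGGGGC), the insulator protein, was found in 3.43% of members and 2.82% of regions of all 4 (1.20% of all windows). TEAD (GGAATG), the partner of Yap, stood at 15.9% (14.0-18.1) and 11.9% (9.73-14.4), with 12.3% of all windows. RUNX stood at 3.90% and 3.85% (3.90%), NFAT (TGGAAAA) at 3.35% and 3.21% (2.94%) and the TATA box (TATAAA) at 3.11% and 2.95% (5.31%). The longer motifs were rare: Tfcp2l1 was found in 0.837% of all members and 0.803% of all regions of all 4 (0.663% of all windows), SRF in 0.736% and 0.937% (0.800%) and p53 in 0.228% and 0.0956% (0.844%).

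Tfcp2l1 ChIP-seq peaks, a readout that the choice of members did not use, fell on few of them. A ChIP-Norm peak overlapped 21 members (0.530%, 0.328-0.808) and a ChIP-Hyp peak 16 (0.403%, 0.231-0.654), 26 in all and 11 in both libraries. Regions of all 4 held 76 (1.44%, 1.14-1.80) and 80 (1.52%, 1.21-1.89). At promoters the ChIP-Norm shares were 0.447% (0.231-0.779) of members and 0.674% (0.455-0.960) of regions of all 4, and at distal sites 0.703% (0.322-1.33) and 5.63% (4.15-7.44). The gap was thus wider at distal sites, but these shares were not split by rank. The median weakest rank was 56.1% for distal members and 21.7% for distal regions of all 4. The ChIP-Hyp shares were 0.223% and 0.629% at promoters and 0.781% (0.375-1.43) and 6.36% (4.79-8.26) at distal sites. In the top 20% the intervals overlapped for ChIP-Norm, at 1.13% (0.517-2.13) and 2.03% (1.56-2.60), and did not for ChIP-Hyp, at 0.627% (0.204-1.46) and 2.33% (1.82-2.93). That bin held 62 of the 76 regions of all 4 with a ChIP-Norm peak. From 20% to 50% the shares were close, at 0.456% and 0.475% for ChIP-Norm and 0.456% and 0.396% for ChIP-Hyp. From 50% to 100% they were 0.324% and 0.836%, and 0.270% and 0.418%, with intervals that overlapped. As a share of the ChIP-seq peaks, 5.34% of 393 ChIP-Norm peaks and 2.61% of 612 ChIP-Hyp peaks lay on a member, and 20.6% and 13.9% on a region of all 4. In the sample records the genome build is given for the ATAC-seq only, and the ChIP-seq positions were taken as GRCm38.

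Of these 26 members, 7 overlapped tRNA genes, which RNA polymerase III transcribes. All 7 members on a tRNA gene had a ChIP-seq peak in both libraries, as did 9 of the 10 regions of all 4 that overlapped one. The member at n-TTcgt5 (chr16:13437097-13437404) had a ChIP-Norm fold enrichment of 18.3 and a ChIP-Hyp value of 11.8, and that at n-TMcat11, over the start site of Ilf2, 16.7 and 17.2. Of the tRNA members n-TYgta9, near Agbl5, ranked only in the top 88.8% and n-THgtg3, near Shf, only in the top 90.0% in the weakest of the 3 ATAC-seq libraries.
Of the genes that RNA polymerase III transcribes, only tRNA genes were annotated here, so the members below may lie on others. Outside tRNA genes the strongest was a member 4292 bp from Nemf (chr12:69361457-69361687) with a −log10 q of 43.5 in ChIP-Norm and 11.6 in ChIP-Hyp. The promoter of Arrdc3 held a peak in both, of 11.0 and 27.8, and that of Rps29, a protein of the small ribosomal subunit, only in ChIP-Norm, of 24.2. The promoters of Wasf1, an actin regulator, Hdac2, a histone deacetylase, Flcn, the folliculin tumour suppressor, and Tia1, an RNA-binding protein, held weaker ChIP-Norm peaks of 9.41, 8.27, 7.59 and 4.94. Dusp12 and Cwc27 held ChIP-Hyp peaks of 5.18 and 6.65 only. ChIP-seq values rank peaks within 1 library and were not compared between the 2.

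At the level of genes, 7245 of 21842 protein-coding genes had a shared region within 1 kb of a start site. Of these, 2839 had a member there (background, 39.2%) and 2036 had a member and no Hyp-Imm peak at any start site (background, 28.1%). The other 803 kept a Hyp-Imm peak at the same or another start site. In 25 lists of genes by function the members took 288 of the 722 listed genes with a shared region (39.9%, 36.3-43.6), and the interval of 3 of the 25 lists did not hold 39.2%. These lists were chosen with earlier results of these data known, the contrast is the one the rule used, and nothing is read from a single list. The 3 lists are secreted factors of senescent cells, cholesterol synthesis and folding genes of the endoplasmic reticulum. All lists below, these 3 included, are given as places to find named members, not as themes.

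Of energy metabolism, the respiratory chain and ATP synthase had 19 of 36 genes with a member (52.8%, 35.5-69.6), the mitochondrial ribosome 14 of 33 (42.4%) and the tricarboxylic acid cycle with the malate shuttle 8 of 24 (33.3%), all with intervals that held the 39.2% of all genes. Mdh1, the cytosolic malate dehydrogenase, whose member also holds the start site of Wdpcp, ranked in the top 0.284% of Norm-Pro and 0.148% of Norm-Sen but 5.56% of Hyp-Pro. Cs, citrate synthase, ranked 1.44%, 7.25% and 2.83%, Atp5e, a subunit of ATP synthase, 1.43%, 1.45% and 4.87%, and Mrps26, of the small mitochondrial ribosomal subunit, 4.52%, 1.54% and 2.48%. Mccc2, a subunit of the carboxylase that degrades leucine, ranked 2.07%, 0.259% and 13.1%. Mdh1 and Mccc2 thus ranked lower in Hyp-Pro than in Norm-Pro and Norm-Sen. So did the median member, at 24.7% against 15.6% and 19.3%, so this is not particular to these genes.

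Glycolysis and targets of HIF, the factor that low oxygen stabilizes, had 16 of 33 genes with a member (48.5%, 30.8-66.5, against 39.2% of all genes). Hk2, a hexokinase, ranked 4.59%, 3.90% and 13.0% in Norm-Pro, Norm-Sen and Hyp-Pro, Pfkp, a phosphofructokinase, 4.93%, 18.5% and 1.57%, and Ndrg1, induced by hypoxia, 12.3%, 8.10% and 6.14%. The member at Kdm3a, a hypoxia-induced histone demethylase, lay 243 bp from a Hyp-Imm peak. Slc2a1, Egln1, Vhl and Epas1 were also among the 16.

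Antioxidant genes and targets of NRF2, which answers oxidative stress, had 15 of 29 (51.7%, 32.5-70.6, against 39.2%). Glo1, which detoxifies methylglyoxal, ranked in the top 6.95% of Norm-Pro, 0.278% of Norm-Sen and 1.63% of Hyp-Pro, and Fth1, the ferritin heavy chain, 5.61%, 1.19% and 2.48%. Autophagy and lysosome genes had 16 of 40 (40.0%). Lrrk2, a kinase that acts at lysosomes, was uneven among the 3, with ranks of 0.876%, 0.296% and 21.7%. Cholesterol synthesis had 3 of 25 (interval 2.55-31.2%), Dhcr7 and Acss2 among them, and all 3 kept a Hyp-Imm peak at a start site. Folding and stress genes of the endoplasmic reticulum had 4 of 33 (12.1%, 3.40-28.2), Ero1l, Ero1lb, Sec61b and Xbp1.

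**Figure D5:**
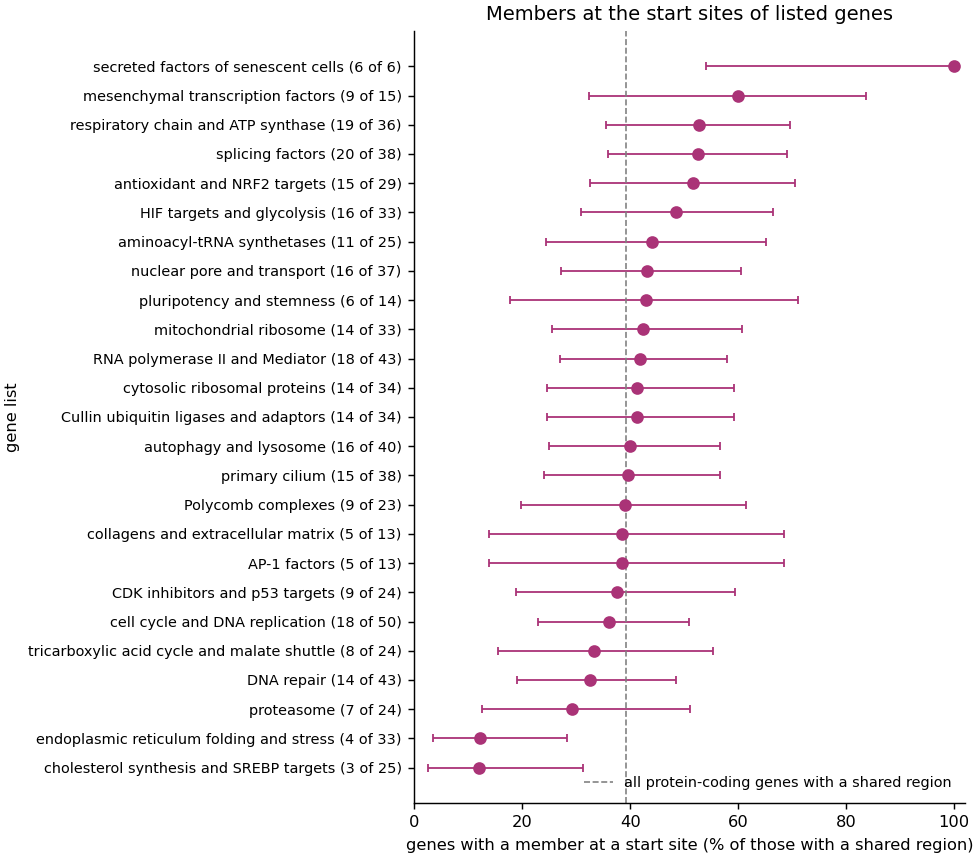
Percent of the listed genes with a member at a start site (x axis), of those with a shared region there, for 25 lists with 95% exact intervals, and the 39.2% of all protein-coding genes as a dashed line. The values run from 3 of 25 for cholesterol synthesis to 6 of 6 for secreted factors of senescent cells.

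Of growth control and senescence, cell cycle and DNA replication had 18 of 50 genes with a member (36.0%, 22.9-50.8), among them E2f3, which drives entry into S phase and ranked 1.90%, 1.69% and 6.06%, and the replication licensing genes Cdc6 and Gmnn. DNA repair had 14 of 43 (32.6%). CDK inhibitors and p53 targets had 9 of 24 (37.5%, 18.8-59.4), including Cdkn2a and Trp53 itself, the latter with fold enrichments of 5.06, 5.72 and 5.95 in Norm-Pro, Norm-Sen and Hyp-Pro and a Hyp-Imm peak 2040 bp away. All 6 genes for secreted factors of senescent cells that had a shared region had it missing in Hyp-Imm (interval 54.1-100%, against 39.2% of all genes), among them Plat, Igfbp7, Il6, Timp1 and Timp2. They were of moderate strength, Plat, the tissue plasminogen activator, at 17.2%, 9.65% and 16.1% and Il6, the interleukin, at 13.2%, 40.7% and 43.2%. Of the 41 genes of that list 22, 18 and 15 had a peak at a start site in Norm-Pro, Norm-Sen and Hyp-Pro, and 4 in Hyp-Imm, where 53.4%, 51.6% and 48.2% of all protein-coding genes had one in those 3 libraries and 34.2% in Hyp-Imm.

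Among regulators of cell identity, mesenchymal transcription factors had 9 of 15 (interval 32.3-83.7%, which holds 39.2%), with Nfib, Tbx15, Ebf2 and Ebf3 the strongest and Nfib at 9.92%, 18.8% and 9.21%. AP-1 genes themselves had 5 of 13 (38.5%): Batf3, Fos, Fosl2, Maf and Mafk. Fos ranked in the top 10.5% of Norm-Pro and 13.0% of Norm-Sen and 75.5% of Hyp-Pro, and 3 of the 5 kept a Hyp-Imm peak at a start site. Polycomb genes had 9 of 23 (39.1%). Ezh2, the H3K27 methyltransferase, ranked 1.15%, 0.914% and 9.51%, but a Hyp-Imm peak lay 126 bp from its member, as one lay 136 bp from that of Eed. Pluripotency and stemness genes had 6 of 14 (42.9%), and the start site of Tfcp2l1 was one of them (chr1:118627733-118628079), at 11.5%, 28.2% and 71.6%, with its nearest Hyp-Imm peak 10007 bp away. Tet2, which oxidizes methylcytosine, ranked 4.02%, 5.68% and 26.0%. Collagens and matrix genes had 5 of 13 (38.5%), Nid2, Fbln2, Vcan, Sparc and Plod2.

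Lists of genes that every cell uses also had intervals that held 39.2%. Splicing factors had 20 of 38 genes with a member (52.6%, 35.8-69.0), RNA polymerase II and Mediator 18 of 43 (41.9%), nuclear pore and transport 16 of 37 (43.2%), aminoacyl-tRNA synthetases 11 of 25 (44.0%), cytosolic ribosomal proteins 14 of 34 (41.2%), the proteasome 7 of 24 (29.2%) and the primary cilium 15 of 38 (39.5%). Snrpc, of the U1 particle, ranked 3.28%, 7.22% and 1.94%, Ranbp2, a nucleoporin, 5.79%, 5.61% and 6.87%, Lars2, the mitochondrial leucyl-tRNA synthetase, 3.83%, 1.94% and 6.15%, and Ift88, which builds cilia, 3.58%, 2.21% and 2.01%. Cullin ubiquitin ligases and their adaptors had 14 of 34 (41.2%). Kbtbd8, a Cullin 3 adaptor, was the strongest of these, at 1.00%, 0.163% and 3.17%, with a −log10 q of 25.3 in Norm-Sen. Psmb1 and Tbp share 1 member between them, as do Rpl7a and Med22, so list counts are not independent.

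Members were found on every autosome. The share of shared regions that were missing ran from 37.9% on chromosome 19 to 49.2% on chromosome 18, and was 54.8% (47.4-62.0) on the X chromosome, 103 of 188 regions, against 42.7% (41.7-43.8) on the autosomes. The low X share of all Hyp-Imm peaks moves with that value, and its part in it was not tested. The longest runs of neighbouring shared regions that were all members had 9, 9 and 8 regions. The first spanned 0.225 Mb at chr4:147125977-147350799 over the zinc finger genes Zfp991, Zfp988 and Zfp978, a cluster of near-identical genes whose reads are uncertain, and held 6 Hyp-Imm peaks that overlapped none of the 9. The second, 5.04 Mb on chromosome 2 from Proser2 to Prkcq, held 7 promoters, Gata3 and Taf3 among the nearest genes, and 49 other Hyp-Imm peaks. The last, 0.985 Mb on chromosome 10, held 8 promoters from Mfsd4b4 to Wasf1 and 17 Hyp-Imm peaks, so none of the runs was a stretch without peaks in Hyp-Imm.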

How the data were processed

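ATAC-seq was measured in 4 libraries and Tfcp2l1 ChIP-seq, made by ChIPmentation, in 2, with 1 library per condition. The authors aligned ATAC-seq reads to GRCm38 (mm10) with Bowtie2, and the submitters' processing notes also name SAMtools and MACS2; for the ChIP-seq they name Bowtie and MACS2, and its build was not given in the sources used here, so GRCm38 was assumed. In the deposited peak lists each peak carries the fold enrichment over local background (a ratio), −log10 p and −log10 q values, a score of 10 times the −log10 q that was not used, and the summit position. The authors called peaks in each library separately. Read counts were not used here, and depth was derived only from the step between low fold values (tolerance 0.001), on which 20.7% to 32.7% of the peaks of a library lie. Shallow libraries tend to have fewer peaks past an FDR of 0.05, which bears on every missing peak. Norm-Sen, the deepest by background, nevertheless had fewer peaks than Norm-Pro.

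Peaks of the 4 ATAC-seq libraries were merged where they overlapped or touched, and conditions followed the sample labels. Start sites came from protein-coding transcripts of GENCODE vM21 and 403 tRNA genes from RefSeq. Motifs were searched on both strands of 200 bp windows around the summit of the best ranked peak, with up to 2 mismatches only in the longest. Shares carry 95% exact Clopper-Pearson intervals. No condition was tested. Region building and motif search were tested on simulated data. Python 3.11.15, numpy 2.4.6, pandas 2.3.3, scipy 1.17.1 and matplotlib 3.10.9 were used.

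Genes and regions were named by rule: the 12 promoter and 8 distal members (within 100 kb of a start site) with the best weakest rank, up to 4 genes per list by the same rank, up to 8 members by ChIP-seq −log10 q, the 3 members nearest to a Hyp-Imm peak, the 3 regions with the weakest Hyp-Imm peak, the 3 longest runs and 5 genes named in an earlier description. Other genes given with values or by name were chosen after their values were seen. The members and lists were chosen with earlier results of these data known. The SRF motif was tightened after its first matches were seen. Some genes that the rule names are not reported here.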

Additional observations from a re-analysis of the deposited data

How the results depend on the processing

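The 7 values below were recomputed under 11 to 17 other settings each, of which up to 3 were chosen after seeing the data. A planned setting, conditions by file name with the same library, repeats the main run by construction. Only the AP-1 difference and the Sp and Klf difference have a direction, and neither reversed. The rest are shares or counts, which could move but not reverse. Values not among the 7 were not recomputed. The share missing in Hyp-Imm, 42.9%, became 49.3% and 59.2% with peaks of −log10 q of at least 3 and 5, 36.7% with 37770 peaks in each library and 19.3% with the 10000 strongest peaks of the 3 libraries. It was 41.5% and 40.8% with peaks merged within 100 and 500 bp, 44.4% with 50% coverage and 41.9% where the 3 peaks shared a base. The number of members, 3966, became 2500 at −log10 q of at least 5 and 692 with the 10000 strongest peaks. The promoter share, 67.7%, became 72.9%, 85.9%, 71.8% and 80.3% under these 4 peak thresholds in the same order, 64.9% and 60.9% under wider merging, 64.9% and 69.4% with start sites within 500 bp and 2 kb, and 59.5% with 5′ ends of genes. The Sp and Klf difference at promoters, -11.2 percentage points, became -5.34 with the 10000 strongest peaks and -6.99 with windows of 100 bp. The 26 members with a ChIP-seq peak became 9 with the 10000 strongest peaks and 42 with peaks within 500 bp. The share of listed genes with a member, 39.9%, became 44.5%, 61.0%, 34.7% and 20.1% under the peak thresholds and 34.4% with merging within 500 bp. With the library whose file is named for immortalized MEFs in hypoxia as the missing one, the values were 7.59% missing, 433 members, 53.6% promoters, an AP-1 difference of 3.72 points in place of 11.5, 1 ChIP-seq overlap and 5.53% of listed genes. The causes were not tested beyond what each alternative changes by construction. No paired analysis was possible because each condition is 1 library, and for the same reason no replicate could be left out.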
